A study of Arabidopsis thaliana with 2 samples.

Results

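Polycomb repressive complex 2 (PRC2) places the repressive mark H3K27me3, trimethylation of lysine 27 of histone H3, on chromatin. The plant complex has a methyltransferase of the E(z) type, a zinc finger protein of the Su(z)12 type and WD-repeat proteins, and gene duplication has given the first 2 subunits several versions. MEA and FIS2 act in the female gametophyte and the endosperm, where the complex that holds them keeps the seed from starting before fertilisation. CLF, SWN, EMF2 and VRN2 are their paralogues with broad roles in the plant body, and FIE and MSI1 are shared by the complexes. The 8 genes described here are this core set: MEA (AT1G02580), CLF (AT2G23380), SWN (AT4G02020), FIS2 (AT2G35670), EMF2 (AT5G51230), VRN2 (AT4G16845), FIE (AT3G20740) and MSI1 (AT5G58230). They were taken by gene code from 33575 annotated genes in an assembly of transcripts from Arabidopsis thaliana siliques, the seed pods, and hold 16 of its 52608 transcripts. Of these 16, 11 are annotated transcripts and 5 are new isoforms.

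The labelled material was siliques 1 to 5 days after pollination from soil-grown plants of ecotype Col-0 that carry the mutant allele ago3-3 of the Argonaute gene AGO3. There are 2 labelled libraries, both from this single group, made with a strand-specific kit from total RNA after removal of ribosomal RNA. Wild-type siliques are also part of the series' design, and the libraries that entered the assembly are not stated. The merged set carries 0 columns with a value per library, so it gives no expression level, no replicate error and no comparison of genotypes, and the depth is unknown. The labelled tissue and the mutated gene could likewise not be checked against expression, and an isoform cannot be assigned to seed or fruit wall.

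In such a merged set an annotated transcript is listed with or without reads, so only assembled structures were read as coming from the RNA. A new isoform here is an assembled transcript that matches part of the splice junctions of an annotated gene and differs elsewhere. At least 1 new isoform was present for 4 of the 8 genes (50%, exact 95% interval 15.7 to 84.3%), beside 19.0% of all annotated genes. The 8 genes were chosen and not drawn at random, so this interval describes no wider set of genes. The 19.0% includes 11068 genes of 1 exon, of which 0 had a new isoform. Among genes with the exon numbers of the 8, the share ran from 29.8% (6 exons) to 61.5% (22 exons). The 50% lies within that range, so the count is no excess over genes of like exon number. CLF had 2, and FIS2, EMF2 and VRN2 had 1 each. MEA, SWN, FIE and MSI1 had 0. By subunit, that is 1 of 3 methyltransferase genes, 3 of 3 Su(z)12-type genes and 0 of 2 WD-repeat genes. CLF alone was among the 6.17% of all genes with 2 or more. A change of coding sequence was found in CLF and VRN2, 2 of 8 genes, where 17.4% of nuclear coding genes have such a new isoform. Neither the 6.17% nor the 17.4% was matched for exon number, so neither shows an excess over genes of like exon number.

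The departures lie at few sites, and the genome sequence at each is shown here because it carries the splice signals concerned. All windows are from TAIR10, plus strand, 5′ to 3′, 30 bases long. An intron begins at its donor, nearly always GT, and ends at its acceptor, nearly always AG. The methyltransferase genes are compared at the end of intron 5, chr2:9957042-9957071 in CLF, chr4:888176-888205 in SWN and chr1:546482-546511 in MEA. Capitals mark the AG of the annotated acceptor at the right end of each. In CLF they also mark the AG of the newly used acceptor at the left end and an ATG after it.
CLF intron 5 end: AGagatATGaacaccgaccatcttatacAG
SWN intron 5 end: aatgatgtttggctttcctgtctgctgcAG
MEA intron 5 end: aaatgttttaaattttcaaatctaatgtAG

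The end of exon 2 is the other site of change in CLF (chr2:9955979-9956008), set beside SWN (chr4:887076-887105) and MEA (chr1:545039-545068). Capitals mark the GT of the annotated donor, and in CLF also the GT of the new donor to its left.
CLF exon 2 end: gctgatagGTgtatatcaataaagGTtgct
SWN exon 2 end: ggagaaagagttaggtctattaaaGTaaga
MEA exon 2 end: aaggagagatttctgcatatcaagGTaaga

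In VRN2 the change is at both ends of exon 5, chr4:9477375-9477404 at its start and chr4:9477444-9477473 at its end. Capitals mark the AG or GT used by annotated transcript 1 (left) and annotated transcript 2 (right). The matching exon ends of FIS2 (chr2:14993840-14993869) and EMF2 (chr5:20826725-20826754) have their single annotated GT in capitals.
VRN2 exon 5 start: ttttctgtattgtcacgcAGttAGggagga
VRN2 exon 5 end: caagGTgggcaactattacaactgagGTtt
FIS2 exon 4 end: cgagGTaggcactaattaattagaatcaag
EMF2 exon 12 end: caagGTggactttcatttccattctcattc

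In FIS2 and EMF2 the change is upstream of the start codon. The FIS2 windows are the new donor (chr2:14991856-14991885) and the stretch from the new acceptor to the start codon (chr2:14992694-14992723). The EMF2 windows are the new donor (chr5:20823398-20823427) and the annotated donor it replaces (chr5:20823944-20823973). Capitals mark the GT of each donor, the AG of the FIS2 acceptor and the ATG that starts the FIS2 protein.
FIS2 new donor: ctgcgaaatcataaaGTaaatcgaaatctc
FIS2 new acceptor to start codon: gtgacAGcttatagattaatcaagcagATG
EMF2 new donor: ggtcgattttagataGTaagagttgatgat
EMF2 annotated donor: tgctggattttgaagGTcaccactgttcaa

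**Figure D1:**
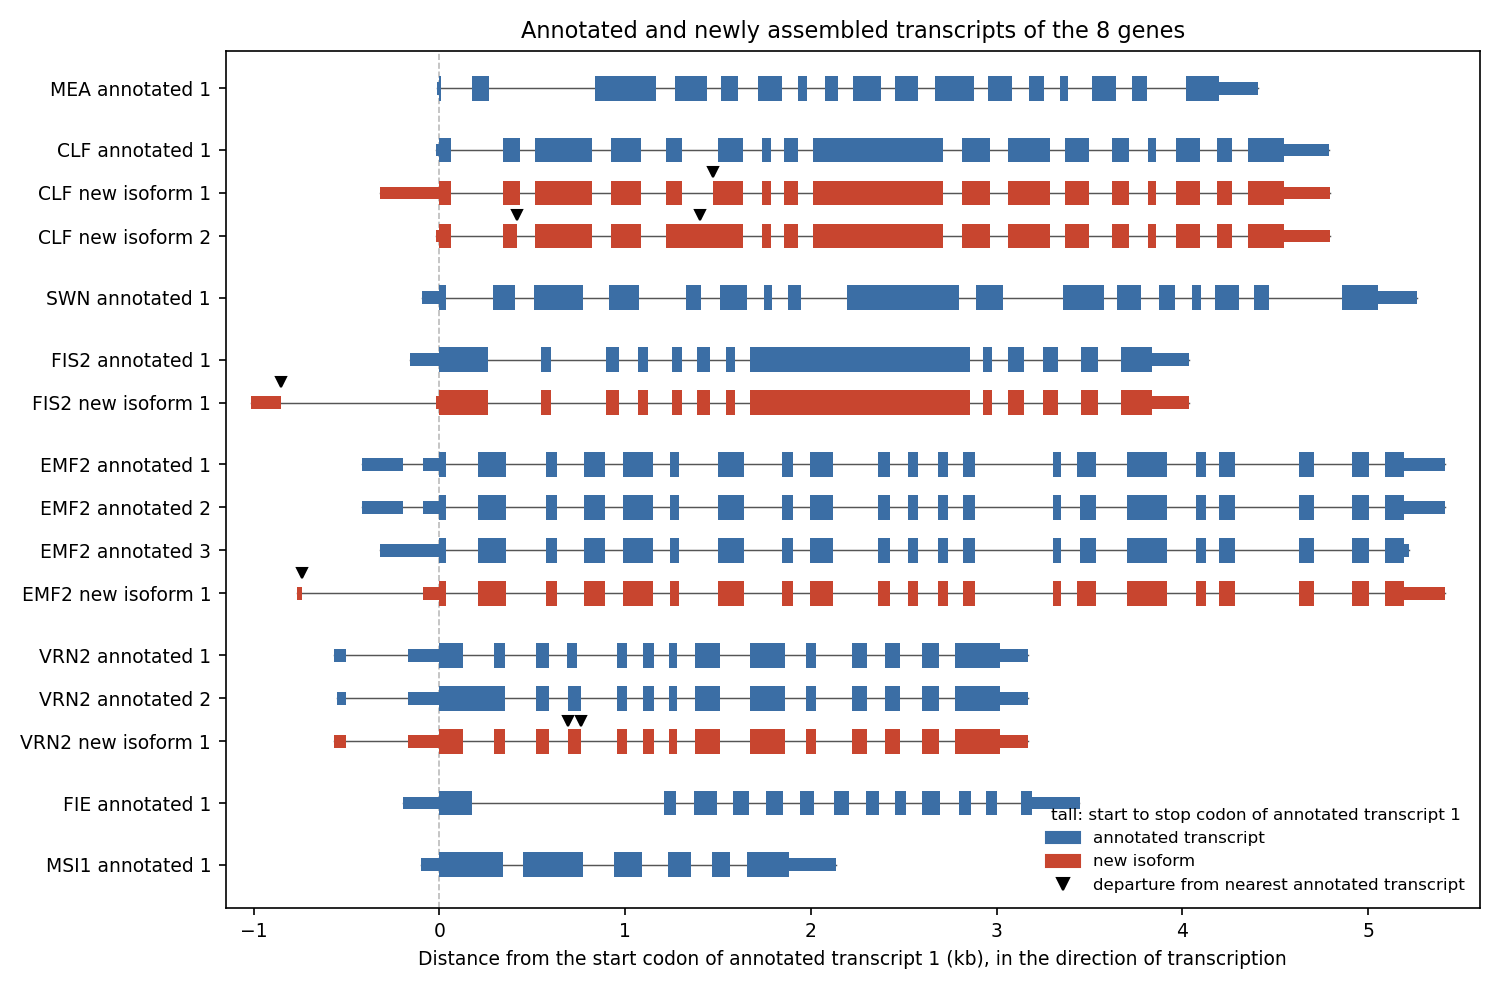
Exons (boxes) and introns (lines) of the 11 annotated transcripts (blue) and 5 new isoforms (red) of the 8 genes, by distance in kb from the start codon of annotated transcript 1; tall boxes lie between the start and stop codons of that transcript. Triangles mark where a new isoform departs from its nearest annotated transcript: upstream of the start codon in FIS2 and EMF2, within the coding region in CLF and VRN2.

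The methyltransferase genes shared their exon layout while differing in new isoforms. MEA, CLF and SWN each have 17 annotated exons, and all 16 junctions fall at the same place within a codon in the 3 genes. Exons 7, 12, 14, 15 and 16 have the same length in all 3, namely 48, 132, 48, 129 and 78 nt. The largest difference is in exon 9, which is 149 nt in MEA, 701 nt in CLF and 605 nt in SWN. The proteins are 689 codons long in MEA, 902 in CLF and 856 in SWN. Of all genes with 17 exons, 53.8% (93 of 173) had a new isoform.

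MEA lies at chr1:544783-549202 on the plus strand and was listed with its annotated transcript alone. Its 16 introns run from 75 to 569 nt (median 89.5 nt). A newer annotation of the same genome, from RefSeq, adds a second MEA transcript of 14 exons that ends at 548254 and encodes 584 codons. The assembly holds no transcript of that shape. SWN (chr4:886600-891955, plus strand) has introns of 71 to 396 nt (median 96.5 nt). RefSeq adds 3 SWN transcripts that retain 1 or 2 introns and encode 802 or 809 codons, and none of them was assembled.

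CLF (chr2:9955553-9960359, plus strand), the methyltransferase of leaves and flowers best known for repressing floral homeotic genes, had both of its new isoforms altered within the coding region. New isoform 1 spans 9955249 to 9960363 in 17 exons and shares 15 of the 16 annotated introns. Its intron 5 ends 28 nt early, at 9957043 in place of 9957071, and is 167 nt long in place of 195 nt. The added 28 nt shift the frame, so the annotated start codon is followed by 235 codons of the CLF protein, 26 other codons and a TAA at 9957122 to 9957124 in exon 6. That gives 261 codons, 28.9% of the annotated 902. The stop lies 1756 nt before the last junction of the transcript, with 11 junctions after it.

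New isoform 2 of CLF spans 9955553 to 9960363 in 16 exons and shares 14 annotated introns. Intron 2 starts 16 nt early, at 9955987 in place of 9956003, and intron 5 is retained whole (195 nt). The net change is 179 nt. Translation runs through 46 annotated and 18 other codons to a TGA at 9956139 to 9956141 in exon 3, which makes 64 codons or 7.10% of the annotated protein. That stop lies 2498 nt before the last junction, with 13 junctions after it. A stop codon more than 50 nt before the last junction is a known feature of targets of nonsense-mediated decay, and whether these RNAs were degraded was not tested. The stop codons of both isoforms are shown in capitals in the windows chr2:9957107-9957136 and chr2:9956124-9956153.
CLF new isoform 1 stop: atccgagagtggcgaTAAtcaagcagagag
CLF new isoform 2 stop: ttactcaaagttttaTGAggtcttctatgg

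Both CLF isoforms change intron 5, and both bring the same later ATG into the transcript. This ATG at 9957048 lies 4 nt after the new acceptor, in the intron 5 window printed above. It opens the longest reading frame of both isoforms, 675 codons, of which 8 precede the annotated acceptor and 667 are in the annotated frame down to the CLF stop codon. The SET domain, the catalytic part of these enzymes, lies at the carboxyl end of the protein. RefSeq uses the same ATG for a shorter CLF transcript of 12 exons that starts at 9957014, 30 nt before the exon start in new isoform 1. No assembled transcript starts there.

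New isoform 1 of CLF also begins 304 nt upstream of the annotated start, at a place that is 157 nt inside the longer RefSeq gene. Its leader, the sequence before the annotated start codon, is 321 nt with 2 upstream ATGs, against 17 nt with 0 in the annotated transcript. Both upstream ATGs meet a stop before the start codon.

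**Figure D2:**
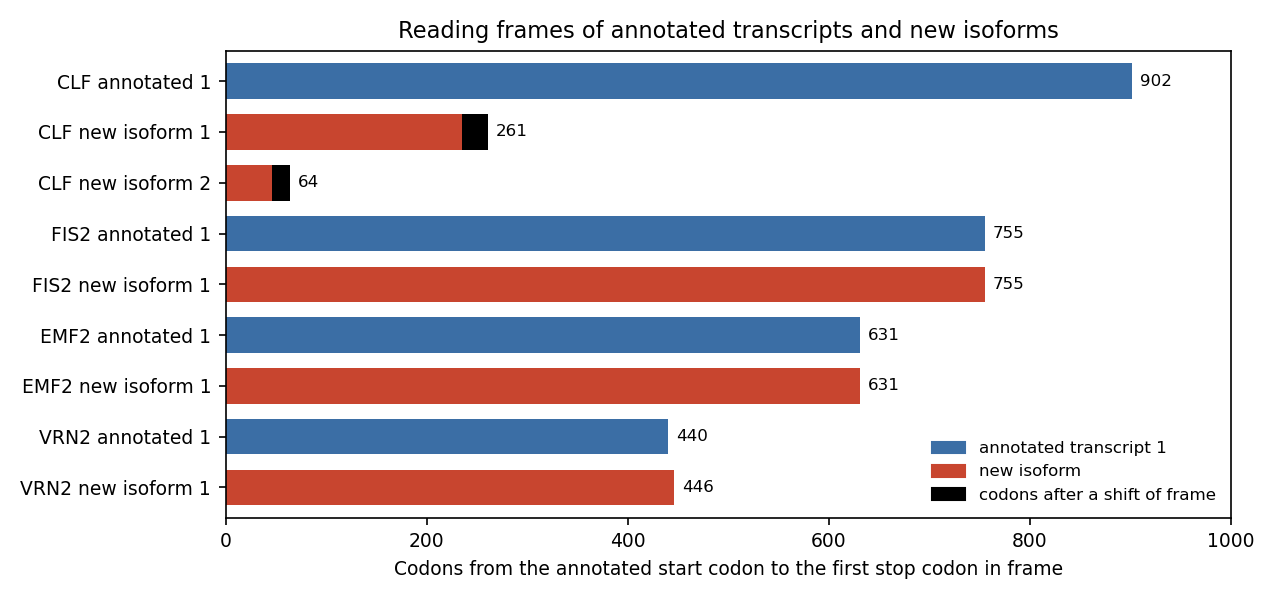
Length of the reading frame in codons, from the annotated start codon to the next stop codon in frame, for annotated transcript 1 (blue) and each new isoform (red) of the 4 genes that have one. In the CLF isoforms the frame has 261 and 64 codons against 902, with the codons after the frame shift in black; FIS2 has 755 and EMF2 631 in both, and VRN2 has 446 against 440.

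At the sequence level SWN and MEA had no AG or GT at the distances of the new CLF sites from the annotated ones. The windows were set by distance from the annotated site and were not aligned, so a GT at another distance in SWN is not excluded as a counterpart. Within the last 30 bases of intron 5, CLF has 3 AG dinucleotides, and SWN and MEA have only the final one. Over 127057 annotated introns of at least 60 nt, 3.95% have an AG 28 nt before their end as CLF does, and 59.6% have no AG but the last in this window, as SWN and MEA do. In the exon 2 window CLF has 3 GT dinucleotides, SWN 3 and MEA 1. The distances of 28 and 16 nt were taken from the new CLF introns, so the matches in CLF were given in advance. A GT 16 nt before the annotated donor is absent from the SWN and MEA windows, and 4.25% of introns have one. These are matches of letters on the strand of the gene and not measured use of a site.

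Splice sites were also scored with a weight matrix made from all annotated nuclear introns, in bits, where a higher score is closer to the common sequence. The new CLF acceptor scored 10.1 bits, above 87.5% of 127854 introns, and the annotated acceptor 6.52 bits, above 39.9%. The new CLF donor scored 5.14 bits and the annotated one 4.52 bits, above 21.4 and 14.5% of introns. Both new CLF sites thus scored above the annotated sites they replaced. At the same intron, the annotated acceptor of SWN scored 10.4 bits and that of MEA 5.00 bits.

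**Figure D3:**
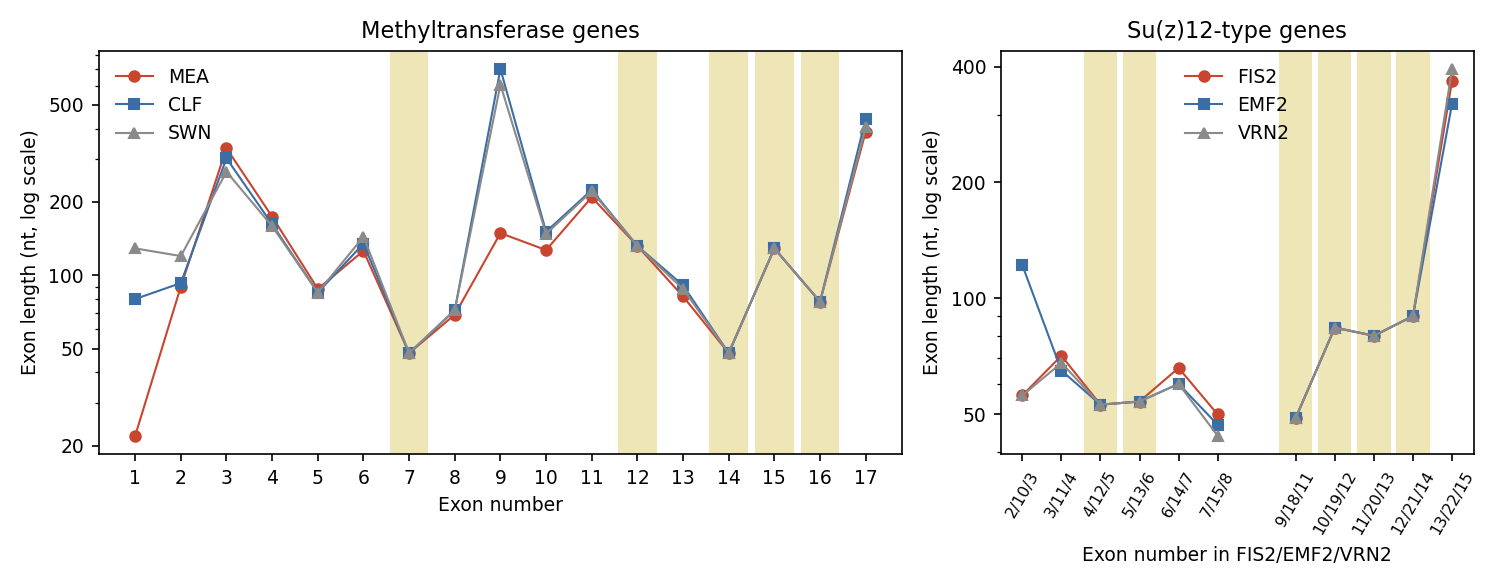
Exon length in nt (log scale) by exon, in the methyltransferase genes (left, exons 1 to 17) and in aligned blocks of the Su(z)12-type genes (right, exon numbers of FIS2, EMF2 and VRN2 in that order). Shaded exons have the same length in all 3 genes of a family, 5 exons on the left; exon 9 separates MEA (149 nt) from CLF (701 nt) and SWN (605 nt).

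All 3 Su(z)12-type genes had 1 new isoform each, and they differed in where it departs. FIS2 and EMF2 changed upstream of the start codon with the protein intact, and VRN2 changed inside it. The 4 exons before the last one are 49, 84, 80 and 90 nt long in all 3 genes. A block of 6 exons around an exon of 53 nt (exon 4 of FIS2, 12 of EMF2 and 5 of VRN2) keeps its junctions at the same place in the codon. FIS2 stands apart by its exon 8 of 1185 nt, the only exon between this block and the 4 exons of equal length. In that place EMF2 has exons 16 and 17, and VRN2 has exons 9 and 10. The longer exon of each pair is 220 nt in EMF2 and 187 nt in VRN2. FIS2 thus lacks the junction within each pair.

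FIS2 (chr2:14992565-14996756, plus strand), the seed version, has 13 exons and 755 codons, and its new isoform has 14 exons from 14991705 to 14996756. It starts 860 nt upstream of the start in both annotations, with a new exon of 166 nt and a new intron of 830 nt (14991871 to 14992700). That intron ends 20 nt before the start codon and removes 136 nt of the annotated exon 1. All 12 annotated introns and all 755 codons were kept. The 3′ end of FIS2 overlaps AT2G35680, on the minus strand, by 44 nt. The leader is 186 nt with 1 upstream ATG, against 156 nt with 6 in the annotated transcript, and 0 ATGs are common to both. The new donor scored 5.35 bits and the new acceptor 5.99 bits, above 23.6 and 32.9% of introns. Of all genes with 13 exons, 44.1% had a new isoform.

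EMF2 (chr5:20823736-20829564, plus strand), needed to hold back flowering, has 3 annotated transcripts of 626 or 631 codons. Its new isoform has 22 exons from 20823389 to 20829564, which places its start 347 nt upstream of the annotated one and 255 nt upstream of the RefSeq one. The new exon 1 is 24 nt long, and its donor lies 546 nt upstream of the annotated donor, so that intron 1 (20823413 to 20824064) is 652 nt in place of 106 nt. The other 20 of 21 introns are those of annotated transcript 1, and its 631 codons are unchanged. The leader is 112 nt against 311 nt, and its upstream ATGs number 4 against 3, with 3 in common. This exon overlaps the 5′ end of AT5G51220, a gene on the minus strand, by 23 nt. The new donor scored 4.48 bits and the annotated donor 5.04 bits, above 14.1 and 20.1% of introns. Of genes with 22 exons, 61.5% had a new isoform.

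VRN2 (chr4:9476143-9479878, plus strand) keeps the floral repressor FLC silent after cold. Its new isoform has 15 exons and 0 introns outside the annotation, and joins pieces of both annotated transcripts. Like transcript 1 it splices the intron at 9476834 to 9477003 (170 nt), which transcript 2 keeps. Like transcript 2 it starts exon 5 4 nt later and ends it 22 nt later than transcript 1, so exon 5 has 71 nt in place of 53 nt. The net gain of 18 nt keeps the frame and gives 446 codons, 6 more than the 440 of transcript 1. Transcript 2 starts later and has 380. The stop codon is the same. Of genes with 15 exons, 52.4% had a new isoform.

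The 4 nt acceptor shift and the 22 nt donor shift of VRN2 exon 5 each break the frame alone and keep it together. The acceptors scored 5.83 bits in transcript 1 and 3.56 bits in transcript 2, and the donors 6.34 and 5.76 bits. The 22 nt is the distance between the donors of VRN2 transcripts 1 and 2, so the match in VRN2 was given in advance. The matching exons of FIS2 and EMF2 have no GT 22 nt into the following intron, and 5.22% of introns have one. FIS2 and EMF2 have 1 GT in that window, at the annotated donor.

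**Figure D4:**
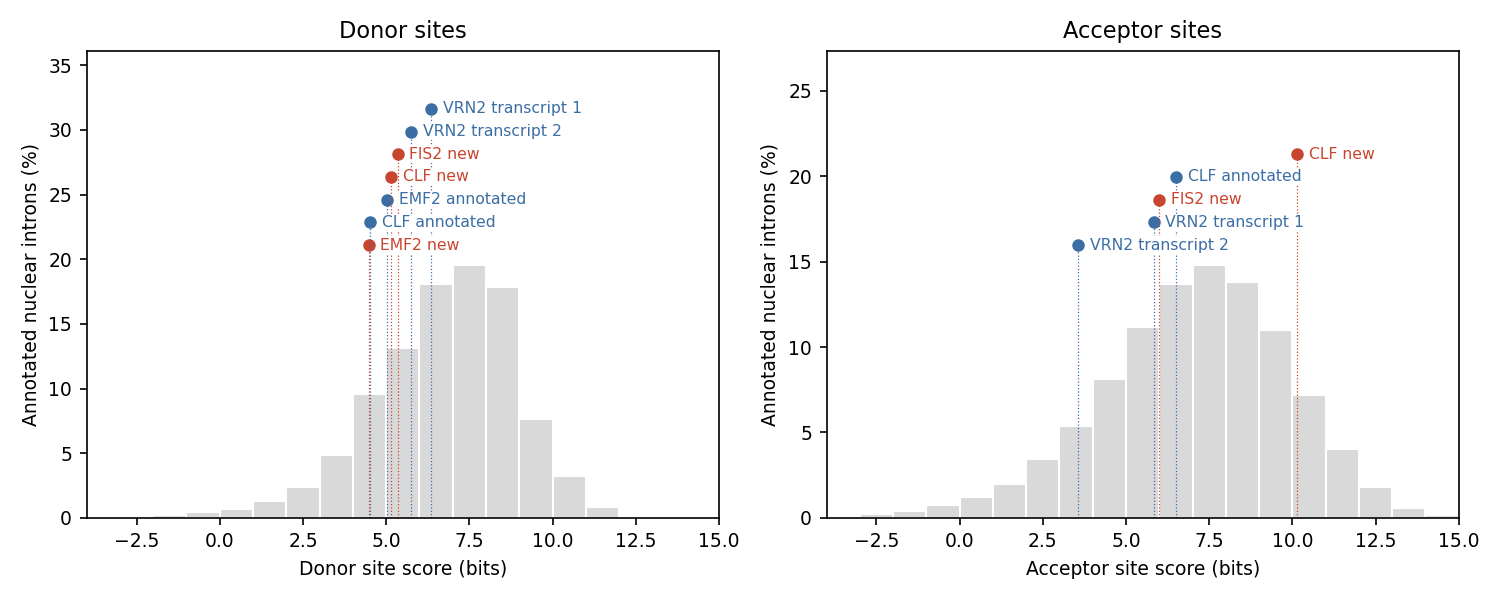
Scores in bits of the donor (left) and acceptor (right) sites that were moved, newly used or replaced, over the distribution of all annotated nuclear introns (grey bars, % per bit); dots mark new sites (red) and annotated sites (blue), and their height has no meaning. The new CLF acceptor (10.1 bits) lies above the median acceptor of 7.23 bits, and the 7 donors plotted lie below the median donor of 6.96 bits.

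The WD-repeat genes carried no departure from the annotation. FIE (chr3:7248809-7252452, minus strand), which binds the methyltransferase, has 13 exons, 369 codons and introns of 82 to 1031 nt. MSI1 (chr5:23556012-23558245, plus strand), a histone-binding protein that also serves chromatin assembly, has 6 exons, 424 codons and introns of 91 to 165 nt. Genes with 6 exons had a new isoform in 29.8% of cases, and those with 13 exons in 44.1%. FIE overlaps AT3G20730 by 70 nt and the long noncoding RNA gene AT3G04025 by 210 nt, both on the plus strand, and MSI1 overlaps AT5G58240 on the minus strand by 132 nt. No antisense transcript was assembled at any of the 8 genes.

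**Figure D5:**
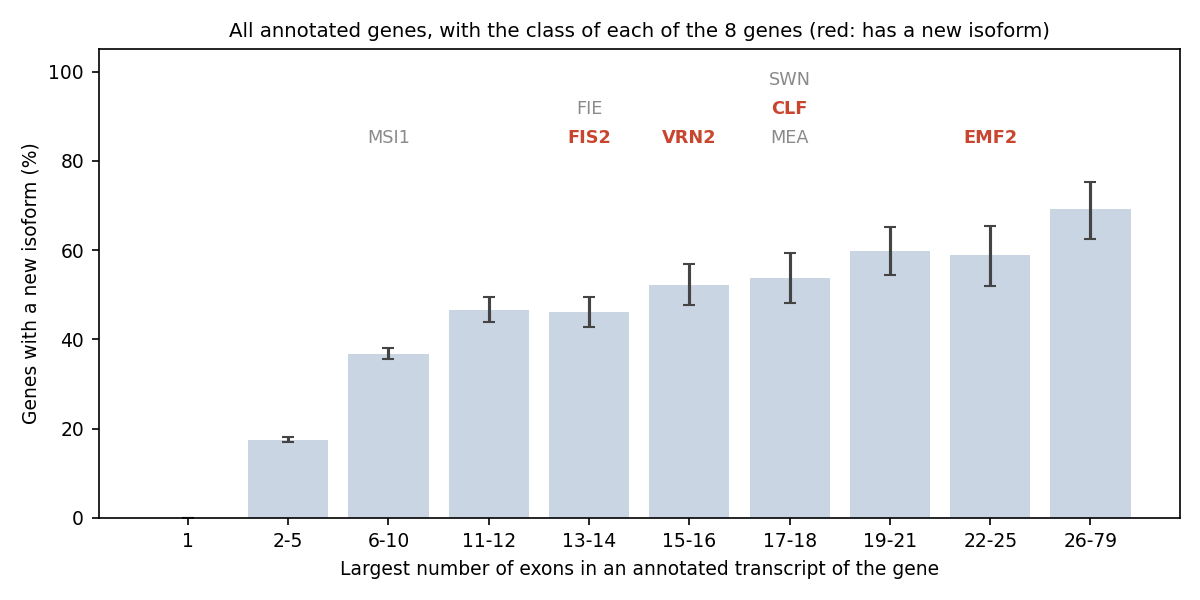
Share of all annotated genes with a new isoform (%, bars with exact 95% intervals), by the largest number of exons in an annotated transcript; the names stand over the class of each of the 8 genes, in red where it has a new isoform. The share is 0% for genes of 1 exon and 69.2% for those of 26 to 79 exons, and the 8 genes lie in classes from 36.7 to 58.8%.

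Set against their paralogues, the seed genes MEA and FIS2 had 1 new isoform between them, in 1 of 2 genes, and it kept the coding sequence. The broadly acting genes CLF, SWN, EMF2 and VRN2 had 4, in 3 of 4 genes. Of these 4 isoforms, the 2 of CLF lost the frame and that of VRN2 changed the coding sequence in frame. The EMF2 isoform kept the coding sequence. Over all genes with the exon numbers of these seed and broad genes, 44.1% (13 exons) to 61.5% (22 exons) had a new isoform. Within the methyltransferases the broad gene SWN resembled MEA in having 0. With 2 and 4 genes and no replicate values, no test of this difference was made.

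Genome-wide, 45.6% of the 8910 new isoforms whose frame could be read kept it to the annotated stop codon, and 35.7% met another stop at least 50 nt before the last junction. Of the 5 isoforms of the 8 genes, 3 kept the frame and 2, both of CLF, met such a stop. A start upstream of every annotated transcript of the gene was found for 66.3% of 9600 nuclear new isoforms, by a median of 101.5 nt (quartiles 38 and 271 nt). Among the 5 it was found for 3, at 304 nt in CLF, 347 nt in EMF2 and 860 nt in FIS2, all beyond the upper quartile. None of the 4 new introns or 5 exon chains is in the RefSeq annotation, and all 4 introns have GT-AG ends. Shifts of exactly the same size numbered 11 for acceptors 28 nt upstream, 13 for donors 16 nt upstream and 1 for donors 546 nt upstream. These counts are over all genes, these included, beside 3320 new introns with a moved acceptor and 1911 with a moved donor, of any size. Counts at other sizes were not compared, so whether these sizes are unusual was not tested.

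No gene of the 8 had a near-identical copy elsewhere in the genome. The closest relation by alignment of spliced sequence was EMF2 to VRN2, with 74.0% identity over 384 nt. CLF matched SWN at 73.3% over 670 nt, MEA matched SWN at 71.0% over 731 nt and FIS2 matched VRN2 at 65.4% over 538 nt. MSI1 matched MSI3 at 69.9% over 236 nt, and FIE matched no other gene.

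Other genes of the Polycomb pathway were counted in the same way. New isoforms were present in 5 of 9 PRC2 accessory genes and MSI1 paralogues, 7 of 10 genes of PRC1 and related silencing, 9 of 12 Trithorax and H3K27 demethylase genes and 3 of 10 known targets. The median per gene was 1 in the first 3 lists and 0 among the targets, against 0.5 in the 8 core genes and 0 over all genes. Median exon numbers were 6, 7.5, 9.5 and 5 in these lists, 16 in the core genes and 3 over all genes. The share of genes with a new isoform was 19.0% over all genes. By exon number it was 17.5% for 2 to 5 exons, 36.7% for 6 to 10 and 69.2% for 26 to 79. In the classes from 11 to 25 exons it ran from 46.1 to 59.8%. Whether the lists depart from these shares was not tested. MSI2 and MSI3, the close paralogues of MSI1 with 6 exons each, had 0 like MSI1, and were singled out after their values were seen. MSI4 and MSI5, with 15 exons each, had 1 each, with the coding sequence kept. All 3 new introns of the MSI5 isoform are annotated introns of the neighbouring gene AT4G29735, to which it is joined.

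The named genes of these lists had changes of several kinds. VRN5, a PHD finger partner of PRC2, had a donor 6 nt upstream in frame, and BLI, a protein that binds CLF, had one 5 nt upstream that led to another stop. VAL2, a DNA-binding repressor, had 3 new isoforms that all used a donor 12 nt upstream and all kept the frame. Of the PRC1 ring finger genes, BMI1A had 2 new isoforms, BMI1B, BMI1C and RING1B had 1 each, and RING1A had 0; BMI1C and RING1A are outside the naming rule and were added after their values were seen. ATX1 and ATX2, methyltransferases that place the opposing H3K4 mark, had 3 each, as did the chromatin remodeller SYD and the demethylase gene JMJ30. All 3 ATX1 isoforms hold the same 9 annotated introns of the neighbour AT2G31625, which are the only new introns of 1 of them, and 1 ATX2 isoform holds an intron of the neighbour AT1G05835. Among targets, LEC1, STM and AG had 1 each, in all of which the coding sequence was changed or incomplete.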

How the data were processed

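The authors deposited 1 merged table of transcript models for the whole series, with exon positions, the name of the annotated gene and a code for the relation of each transcript to the annotation. CASAVA 1.8, TopHat2 and Cufflinks were used with build TAIR10, per the submitters' processing notes, which give no other version or setting used here. The table has 318041 exon lines and no counts, so no depth per library is known, and intervals cover counting error only.

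Transcripts with code j were taken as new isoforms and assigned to a gene by code. Introns were compared with those of all annotated transcripts. Frames were translated from the start codon of the nearest annotated transcript, with coding positions and sequence from RefSeq on TAIR10.1. Nuclear coordinates fit: 32815 of 32819 genes overlapped, and 98.8% of 127854 introns had GT-AG ends. Site scores are log2 ratios to base composition over 3 exon and 6 intron bases (donor) or 15 intron and 1 exon base (acceptor). Similarity was searched with BLAST 2.17.0 (e-value limit 1e-05), the rest with Python 3.11.15 and SciPy 1.17.1. Structure and frame calls were tested on simulated data.

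All 8 core genes are named, and in each other list up to 4 genes with the most new isoforms, ties by code. The members and lists were chosen with earlier results of these data known. The table gives no replicate values, so no test was made. Alternatives changed the transcripts counted, the reference annotation, the start of translation and the genes in the background. No protein sequence was used here.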

Additional observations from a re-analysis of the deposited data

How the results depend on the processing

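The count of core genes with a new isoform stayed at 4 when every departing same-strand transcript was counted, when the codes were ignored, and when the RefSeq annotation was the reference as well. The 4 new introns were the count under both of their alternatives. The isoforms that keep the frame rose from 3 to 5 when the longest reading frame replaced the annotated start, since the 675-codon frame of both CLF isoforms ends at the annotated stop; they stayed at 3 under the other alternatives. The share of all genes with a new isoform moved from 19.0% to 28.3% for genes with at least 2 exons, 23.4% for nuclear protein-coding genes and 20.4% with all same-strand codes. No paired analysis was possible because the merged table has no column per library, and leaving out a replicate was not possible for the same reason. Depth is unknown, so a gene without a new isoform is one for which none was assembled, and an isoform may come from any merged library.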
